A study of Mus musculus with 3 samples.

Results

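Distal intergenic regions are stretches of chromatin that were recovered with Runx1 and that lie away from annotated genes, outside promoters, exons and introns. They were taken here from the authors' location tables, as every region whose class was Distal Intergenic, and the class begins beyond 3 kb of a gene start. Replicate 3 of the study held 1276 such regions among 13194 (9.67%, 95% Wilson interval 9.18 to 10.2), replicate 2 held 125 of 1641 (7.62%) and replicate 1 held 33 of 451 (7.32%). The mean share was 8.20% ± 1.28 (SD, n = 3). The list of replicate 3 was the main set, and each of its members was looked up in the lists of replicates 1 and 2.

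The study is about Runx1 in microglia, the macrophages of the nervous system, and its part in how opioids act and in their withdrawal. All 3 samples belonged to 1 group: spinal cord cells of male C57BL/6J mice aged 8 to 10 weeks, with no other genotype, agent or time named in the labels. Cords were fixed 5 at a time with 1% formaldehyde. Each immunoprecipitation then used 9 µg of rabbit polyclonal Runx1 antibody on about 10 µg of chromatin, pooled from 10 cords. Whether the replicates drew on separate animals is not given in the labels, so errors over replicates measure only the spread between these samples. For replicate 3 the label meant for tissue carries the antibody instead, and its group was read from its title. The material was a whole-cord cell suspension and no expression values were measured, so the cells that carried each region were not identified here. A region bound in fewer cells and a region bound more weakly in each cell cannot be told apart.

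Runx1 is a DNA-binding transcription factor that pairs with the partner protein CBFB and reads a short core sequence through its Runt domain. In blood and myeloid cells much of its binding falls at enhancers, which are regulatory sequences that can act on a gene from a distance and from either side. An enhancer need not act on the nearest gene, so an assigned gene is a label for a position and not a measured target.

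A few distal regions lay on the start of a RefSeq transcript, where RefSeq sequence could be read. RefSeq start windows run from 250 bp before to 50 bp after a start and were at hand for 17492 of 21900 coding genes (79.9%). In replicate 3, 36 distal regions overlapped 39 windows, 32 of them of long non-coding RNA genes and 7 of coding genes. The 5 windows below are shown because 2 of them (Gm34507 and Cistr) lay under regions found in all 3 replicates, 2 (Gm30701 and Gm52238) lay under the strongest regions with the E-box CACGTG, and 1 (Zfp869) lay under the strongest region with a Runx core. All are from RefSeq on build GRCm38.p6, 5′ to 3′ on the strand of the gene. Capitals mark CACGTG, the Runx cores TGTGGT and TGCGGT, and the CCAAT box, each read on both strands, so that ATTGG is CCAAT on the opposite strand.
Gm34507, long non-coding, chr17:4908072-4908371, plus strand: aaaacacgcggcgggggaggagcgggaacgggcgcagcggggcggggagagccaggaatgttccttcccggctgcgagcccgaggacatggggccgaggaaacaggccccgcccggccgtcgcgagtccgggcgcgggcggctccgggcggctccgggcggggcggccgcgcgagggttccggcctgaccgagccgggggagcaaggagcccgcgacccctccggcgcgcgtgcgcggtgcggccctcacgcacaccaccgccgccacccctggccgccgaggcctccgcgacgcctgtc
Cistr, long non-coding, chr15:102746860-102747159, minus strand: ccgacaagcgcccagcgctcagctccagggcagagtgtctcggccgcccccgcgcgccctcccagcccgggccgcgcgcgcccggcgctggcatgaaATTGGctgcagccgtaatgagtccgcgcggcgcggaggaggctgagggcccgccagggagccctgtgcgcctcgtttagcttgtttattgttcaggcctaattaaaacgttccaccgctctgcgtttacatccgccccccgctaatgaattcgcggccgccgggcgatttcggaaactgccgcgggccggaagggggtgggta
Gm30701, long non-coding, chr4:135298276-135298575, minus strand: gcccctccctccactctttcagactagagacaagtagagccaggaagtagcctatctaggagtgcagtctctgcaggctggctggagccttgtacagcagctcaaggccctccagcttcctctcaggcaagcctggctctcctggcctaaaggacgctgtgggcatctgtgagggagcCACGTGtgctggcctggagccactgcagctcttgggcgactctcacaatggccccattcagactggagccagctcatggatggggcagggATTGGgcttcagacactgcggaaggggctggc
Gm52238, long non-coding, chr16:31494171-31494470, plus strand: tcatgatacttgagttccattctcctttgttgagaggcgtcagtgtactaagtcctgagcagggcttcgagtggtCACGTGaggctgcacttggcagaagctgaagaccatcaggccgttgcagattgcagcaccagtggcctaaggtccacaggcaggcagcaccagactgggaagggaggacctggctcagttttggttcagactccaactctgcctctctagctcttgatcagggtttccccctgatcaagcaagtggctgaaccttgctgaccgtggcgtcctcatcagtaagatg
Zfp869, coding, chr8:69716853-69717152, minus strand: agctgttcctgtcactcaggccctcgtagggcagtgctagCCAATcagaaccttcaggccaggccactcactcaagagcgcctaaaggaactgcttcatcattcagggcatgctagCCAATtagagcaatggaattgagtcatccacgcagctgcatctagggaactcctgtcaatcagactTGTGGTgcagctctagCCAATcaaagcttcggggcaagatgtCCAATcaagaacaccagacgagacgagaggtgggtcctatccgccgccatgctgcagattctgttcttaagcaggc

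The window of Gm34507 held none of these motifs and 79.3% G and C, and that of Cistr held 1 CCAAT box and 68.0% G and C. The region over Gm34507 had folds over background of 4.20, 3.98 and 5.17 in replicates 1, 2 and 3, and the region over Cistr had 4.86, 3.15 and 3.86. Both starts thus lay under signal in every replicate, although the authors' tables put them in intergenic sequence. The regions over Gm30701 and Gm52238 had folds of 12.8 and 11.05 in replicate 3 and had no overlapping region in replicates 1 or 2. The region over Zfp869, at 5.64, was also found in replicate 3 alone.

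Over the 39 windows, a Runx core was present in 6 (15.4%), against 22.4% of all 32851 windows and 23.96% of long non-coding windows. TGTGGT was in 12.8% of the 39 and TGCGGT in 5.13%. CACGTG was in 4 of the 39 (10.3%), against 7.15% of all windows, 12.9% of those under any region of replicate 3 and 44.3% of those under any region of replicate 1. The 10-base CLEAR element, which contains CACGTG, was in 0 of the 39 and in 0.326% of all windows. CCAAT was in 30.8% of the 39 and in 37.4% of all windows. The windows of Gm51532 and Zfp869 are nearly the same sequence on opposite strands, so their Runx core and CCAAT boxes were counted in both. Those of Gm34820 and Gm41301 also share most of their sequence. With so few windows, these shares describe only the small part of the set that overlaps a known start, and the sequence of the other distal regions was not used here.

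Distal regions were of about the same strength as regions elsewhere. The deposited fold is the authors' value at a summit, and each region was given its strongest summit. The median fold of distal regions was 4.91 in replicate 1, 4.15 in replicate 2 and 3.91 in replicate 3, against 4.85, 4.00 and 3.81 for all other regions of the same lists. The log2 difference was 0.04 ± 0.02 (SD, n = 3) and was above 0 in 3 of 3 replicates (exact two-sided sign-flip test, p = 0.25, the smallest value 3 replicates can give). Against intronic regions, with medians of 4.50, 4.03 and 3.78, the log2 difference was 0.07 ± 0.05 (SD, n = 3; exact sign-flip p = 0.25). Neither difference could pass a threshold of 0.05 in a design of this size.

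The upper end was also populated. Distal regions with a fold of 5 or more made up 48.5%, 20.8% and 23.8% of the distal sets of replicates 1, 2 and 3, against 44.7%, 16.2% and 20.3% of the other regions. The highest distal folds were 10.0, 6.57 and 14.3, while the highest folds elsewhere were 36.8, 26.7 and 24.5. The top of each list therefore lay outside the distal class. Summit pileups, the number of fragments stacked at a summit, had medians of 20, 20 and 22 fragments at distal regions. A typical distal region thus rested on few fragments, and its fold carried wide counting error.

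Widths gave no single direction across replicates. Median distal widths were 365 bp, 392 bp and 418 bp, against 334.5 bp, 427.5 bp and 478 bp elsewhere, a log2 difference of −0.06 ± 0.17 (SD, n = 3; exact sign-flip p = 0.75). Distal regions were wider in replicate 1 and narrower in replicates 2 and 3. In replicate 3, 998 of the 1276 regions (78.2%) had 1 summit, against 70.1% of the other regions and 79.8% of intronic regions. In replicates 1 and 2 the shares with 1 summit were 90.9% and 88.0% of distal regions, against 92.1% and 86.3% of the others, so the difference had no single direction. Distal regions covered 12.4 kb, 60.1 kb and 674 kb of the genome in replicates 1, 2 and 3.

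Most distal regions of replicate 3 were seen in that replicate alone. Sharing 1 bp or more was counted as overlap, and on that count 117 of the 1276 met a region of replicate 1 or 2 (9.17%, Wilson interval 7.71 to 10.9). Of all regions of replicate 3, 11.7% did. Replicate 1 overlapped 31 of them (2.43%, against 3.11% of all regions) and replicate 2 overlapped 103 (8.07%, against 10.4%). Both overlapped 17 (1.33%, against 1.81%). Every one of these shares was close to or below that of the whole list. Intronic regions were overlapped less often (4.94%, interval 4.09 to 5.95) and promoter regions within 1 kb of a start more often (14.6%, interval 13.8 to 15.4).

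In the other direction, most distal regions of the small lists were found again. Replicate 3 overlapped 31 of the 33 distal regions of replicate 1 (93.9%, against 94.7% of all its regions) and 112 of the 125 of replicate 2 (89.6%, against 92.1%). Together that was 143 of 158 (90.5%). Replicates 1 and 2 overlapped each other at 18 of the 33 (54.5%, against 55.2%) and at 18 of the 125 (14.4%, against 14.8%). At least 1 other replicate overlapped 32 of the 33 (97.0%, against 95.3%) and 113 of the 125 (90.4%, against 92.3%), and both others overlapped 17 (51.5%, against 54.5%) and 17 (13.6%, against 14.6%). The distal class therefore followed the whole lists closely in this direction. In the list of replicate 3 its share was lower (9.17%, interval 7.71 to 10.9, against 11.7%).

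Overlapping regions share a position and the class is set by position, so the partner of a distal region was nearly always distal too. This says little about how well the replicates matched. All 31 partners in replicate 1 and all 103 in replicate 2 of replicate 3 distal regions had the same class. Of the 112 distal regions of replicate 2 that replicate 3 overlapped, 105 were distal there too, and the other 7 met regions called as promoter or 3′ UTR. One of those 7, named here after its value was seen, is beside Olig2, the transcription factor gene of the oligodendrocyte lineage. In replicate 2 the fold was 5.47, and the replicate 3 region that covers it reached 8.22.

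Overlap rose with fold. In replicate 3, distal regions with a fold below 4 were overlapped in another replicate in 2.54% of 669 cases, those of 4 to below 6 in 9.80% of 449, and those of 6 or more in 35.4% of 158 (interval 28.4 to 43.2). Promoter regions gave 6.31%, 17.4% and 49.1% in the same ranges and intronic regions 1.47%, 5.89% and 24.1%. Distal regions lay between both other classes in every range of fold. Width moved with fold: overlapped distal regions had a median width of 882 bp and a median fold of 5.85, and the others had 394 bp and 3.84. Across the 1276 regions the correlation of log width with log2 fold was 0.584 (Pearson; regions share 1 library, and the value is a description).

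**Figure D1:**
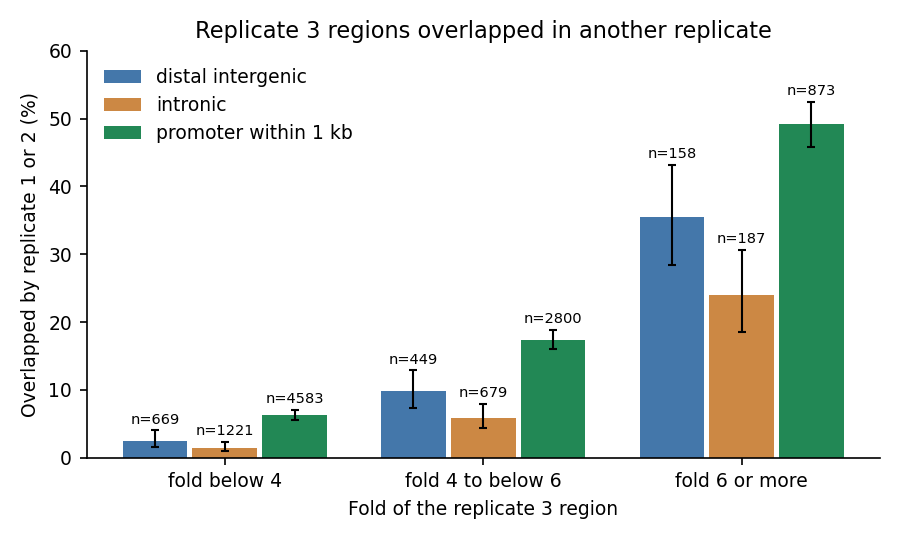
Share of replicate 3 regions that overlap a region of replicate 1 or 2 by at least 1 bp (percent, y axis) by fold of the replicate 3 region (x axis) for distal intergenic, intronic and promoter regions; error bars are 95% Wilson intervals, for counting error only, and n is the number of regions. At a fold of 6 or more, 35.4% of distal regions were overlapped, against 24.1% of intronic and 49.1% of promoter regions.

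The 17 distal regions found in all 3 replicates had median folds of 4.86, 4.31 and 6.59 in replicates 1, 2 and 3. The median fold of the whole list was 4.86, 4.01 and 3.81, so folds are not on a common scale across replicates. Their order by fold differed between replicates: replicate 3 gave the highest fold at 10 of the 17, and at 3 the fold of replicate 3 was below the middle of its own list. Only 1 of the 17, assigned to the long non-coding gene Gm44734 and nearest to the coding gene Chd2, which encodes a chromatin remodeller, had a fold of 5 or more in every replicate.

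A pair of neighbouring regions of the 17 was assigned to Pck1, which encodes the cytosolic phosphoenolpyruvate carboxykinase of gluconeogenesis. They lay on chromosome 2 (173171339 to 173172002 and 173173547 to 173174313, GRCm38), 18.3 kb and 20.5 kb downstream of the start. The first had folds of 8.84, 4.85 and 7.21 in replicates 1, 2 and 3, from pileups of 34, 21 and 47 fragments. The second had 5.15, 4.32 and 6.83. Both had their lowest fold in replicate 2. By rank within its own list, the second was at percentile 60.3 in replicate 1 and 63.7 in replicate 2.

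The region assigned to Irf2bp2, a transcriptional co-regulator that binds IRF2, lay 71.0 kb upstream on chromosome 8 (126665013 to 126668619) and had folds of 4.00, 5.57 and 9.83. The region 61.9 kb from the start of the long non-coding gene Gm43674 had folds of 3.54, 5.85 and 10.2. Its nearest coding gene, 139.7 kb away, was Tbl1xr1, which encodes a subunit of the NCoR co-repressor complex. In both cases the fold was lowest in replicate 1 and highest in replicate 3. The Gm44734 region on chromosome 7 (73594591 to 73596140) had 5.97, 5.55 and 7.14 and had the narrowest spread of these (SD 0.82).

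The region beside Gclc, the catalytic subunit of the enzyme that begins glutathione synthesis, lay 3.17 kb upstream and had folds of 3.98, 3.74 and 7.69. Zfp395, a zinc-finger gene, had 5.35, 4.09 and 8.17 at 13.9 kb upstream, and Foxk1, a forkhead factor gene, had 6.62, 2.99 and 6.10 at 33.6 kb upstream. Replicate 3 gave the highest fold at Gclc and Zfp395 but not at Foxk1.

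Other members of the 17 had their highest fold in replicate 1. The region 20.9 kb from 4930568G15Rik, a long non-coding gene, had folds of 9.35, 4.11 and 3.44. Gm13067 had 6.01, 4.77 and 4.07, and Calcoco1, whose region covers the start of Cistr, had 4.86, 3.15 and 3.86. Ranks within each list gave another order for these 2. Gm13067 was at percentile 76.7 in replicate 1 and 78.9 in replicate 2, and Calcoco1 at 50.3 in replicate 1 and 51.9 in replicate 3. The region 11.99 kb downstream of Fos, the AP-1 subunit gene of the immediate early response, had 5.44, 5.22 and 2.88. Its rank within replicate 3 was thus low (percentile 9.71 of fold) although replicates 1 and 2 placed it at percentiles 66.3 and 87.2.

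The last 5 members were Gm44369 (4.63, 4.52 and 6.59), Gm11233 (3.91, 3.62 and 7.91), Gm20156 (4.51, 3.99 and 5.82), ENSMUSG00000116813 (4.20, 3.98 and 5.17) and Dcstamp (3.91, 4.31 and 3.01). Dcstamp encodes a membrane protein of osteoclast fusion. The Gm11233 and Gm20156 labels are processed pseudogenes, and the nearest coding gene of ENSMUSG00000116813, 85.5 kb away, was Arid1b, a subunit of the BAF remodelling complex.

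**Figure D2:**
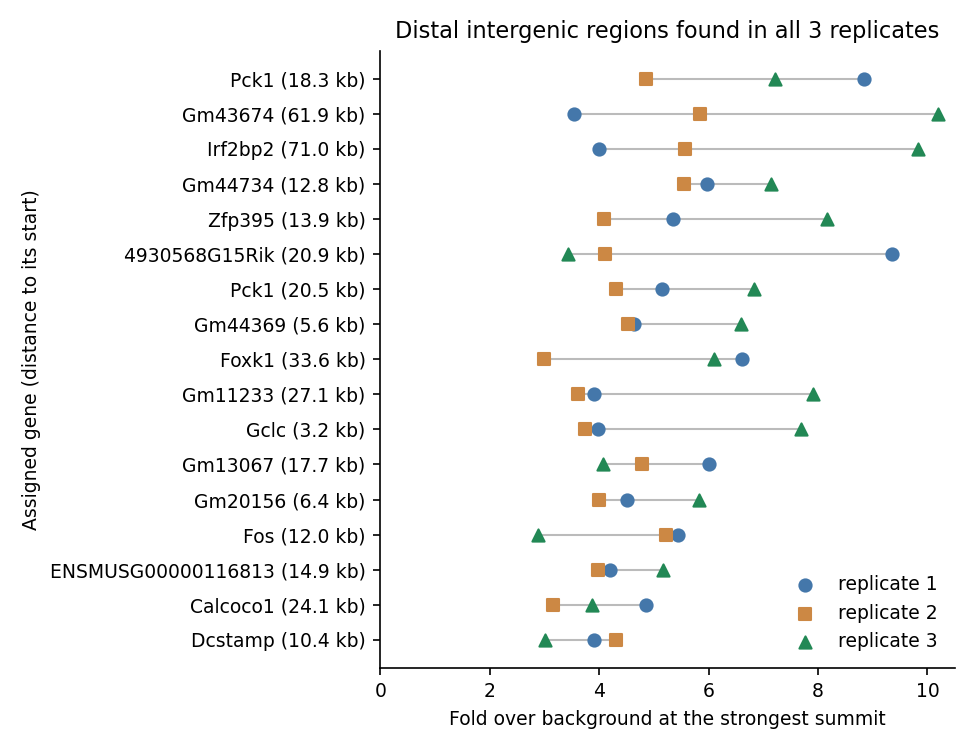
Fold over background at the strongest summit (x axis) of the 17 distal regions found in all 3 replicates, 1 row per region with its assigned gene and distance to that gene's start; symbols are replicates and the grey line spans them. The order of the replicates changes from row to row, from 3.54, 5.85 and 10.2 at Gm43674 to 9.35, 4.11 and 3.44 at 4930568G15Rik.

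Replicate 3 missed 2 distal regions of replicate 1 and 13 of replicate 2. One of these was shared by replicates 1 and 2: the region assigned to Npas4, an activity-induced transcription factor gene of neurons, on chromosome 19 (5001860 to 5002239, coordinates of replicate 1). Its folds were 6.33 and 5.06. RefSeq places it within the body of Npas4, while the authors' table puts it 11.9 kb upstream of the start. The other one of replicate 1 was assigned to Dapk2, a kinase gene, with a fold of 4.69. Among those of replicate 2, the strongest were beside Bmf, a BH3-only gene of apoptosis, at 5.15, Gm24409 at 4.26, Gm47456 at 4.10 and Ptpn11, which encodes the phosphatase SHP2, at 4.09.

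The strongest distal regions of replicate 3 lay beside genes with varied functions. The highest fold, 14.3 from a pileup of 58 fragments (counting interval of the fold 10.9 to 18.4), was 54.5 kb upstream of Spef2, a gene of sperm flagella and cilia, on chromosome 15 (9803380 to 9805100). No region of replicate 1 or 2 overlapped it. The next was assigned to the long non-coding gene Gm29291 on chromosome 1 (153996922 to 153998006), at 14.0 in replicate 3. Replicate 2 gave it 6.57, which was also the highest distal fold of replicate 2. Its nearest coding gene was Glul, the astrocyte gene of glutamine synthetase, at 87.2 kb.

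Cldn11, which encodes the tight-junction claudin of central myelin, followed with a region on chromosome 3 (31165900 to 31167219) 16.0 kb downstream of its assigned start and 1.57 kb from the RefSeq gene body. Its fold was 13.7 in replicate 3 and 4.80 in replicate 2. The other 9 of the top 12 had folds of 11.5 to 13.3. Among their assigned genes were Mir7052, Tmem179, Gm24710, Gm23949, Gm12983, Kctd14, Clrn2 and Gm30806. Of the 12, 7 were overlapped by replicate 2, at folds of 3.45 to 6.57, and none by replicate 1, which overlapped 3.11% of all regions. At a fold of 6 or more, replicate 1 or 2 overlapped 35.4% of distal regions and 42.5% of all regions of replicate 3.

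The widest regions had many summits. The region assigned to Mir148a, 86.8 kb away on chromosome 6, spanned 5655 bp with 12 summits and a fold of 7.75. The region 14.1 kb downstream of the start of Qk, which encodes the RNA-binding protein quaking of myelinating glia, spanned 5452 bp with 12 summits, with folds of 6.14 in replicate 3 and 5.61 in replicate 2. Then came Irf2bp2 (3607 bp), Gm26927 (2930 bp) and a second region of Gm44734 (2556 bp), and the other 5 of the 10 widest spanned 1901 bp to 1972 bp. Of these 10, 9 overlapped replicate 2, the exception being that of Gm10076. Replicate 2 overlapped 10.4% of all regions of replicate 3, but a wide region meets a rule of 1 bp more easily. Overlapped distal regions had a median width of 882 bp, against 394 bp for the others. The share among other regions of such width was not computed.

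Distance to the assigned start varied over a wide range. The median was 15.5 kb in replicate 1, 16.1 kb in replicate 2 and 17.8 kb in replicate 3, a mean of 16.5 kb ± 1.21 (SD, n = 3). In replicate 3 the middle 50% of regions lay 8.52 kb to 37.3 kb away, and 723 regions (56.7%, interval 53.9 to 59.4) were upstream. The 3 nearest members lay 3004 bp from the start of Vis1 (fold 4.83), 3079 bp from Slc11a1 (5.23) and 3091 bp from Cryaa (4.20). Just outside the class, as promoter regions, were those of Srgap2 at 2993 bp (3.55) and Hoxb6 at 2988 bp (3.93). The farthest members were assigned to Gm22223 at 410.9 kb (4.37), Sema6d at 348.6 kb (4.02) and Gm23503 at 269.5 kb (5.17), and the last of these overlapped a replicate 2 region at 4.03.

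Median folds were alike at all distances. Regions within 10 kb (392) had a median fold of 3.91, those from 10 kb to 30 kb (476) 3.92, those from 30 kb to 100 kb (328) 3.89 and those beyond (80) 3.98. The correlation of log distance with log2 fold was −0.033 (Pearson, across 1276 regions of 1 library, as a description). Overlap with another replicate was 9.44%, 11.97%, 6.10% and 3.75% in these ranges. The share was lowest beyond 100 kb, but from only 80 regions, and it did not fall steadily with distance.

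**Figure D3:**
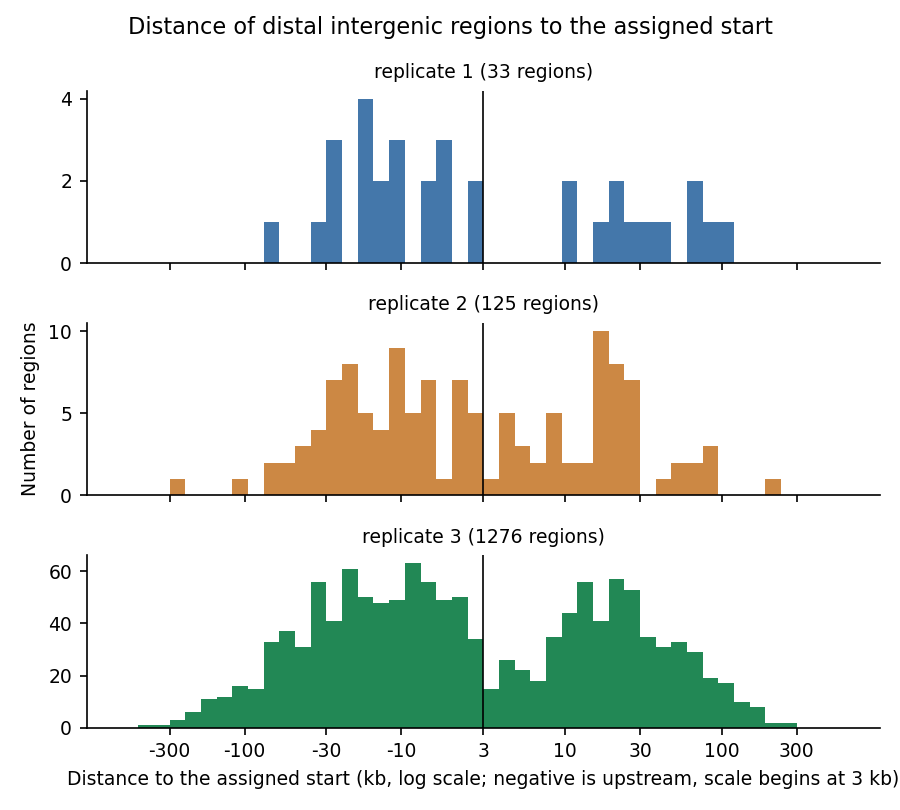
Number of distal regions (y axis) by distance to the assigned start (x axis, kb on a log scale on each side, beginning at 3 kb in the centre, negative upstream) in each replicate. Medians were 15.5 kb, 16.1 kb and 17.8 kb, and both sides of the start were filled in every replicate.

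The intergenic label depended on the gene set. Of the 1276 regions of replicate 3, 246 (19.3%) lay in a RefSeq gene body, most of them (194, or 15.2%) in a long non-coding gene and 39 in a coding gene. Within 3 kb of an end of a RefSeq gene lay 282 regions (22.1%). Outside every RefSeq body and over 3 kb from every end lay 893 (70.0%, interval 67.4 to 72.4), and in replicates 1 and 2 the same held for 63.6% and 62.4%. These 893 had a median fold of 3.95 and were overlapped in another replicate in 8.29% of cases. Both values were close to those of the whole set.

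By the position of RefSeq coding bodies, the nearest coding gene was a median of 24.5 kb, 24.5 kb and 28.9 kb away in replicates 1, 2 and 3. In replicate 3, 311 regions (24.4%) were over 100 kb from any coding gene. The authors' tables named a coding gene for 487 of the 1276 regions (38.2%), a long non-coding gene for 352 (27.6%), a pseudogene for 304 (23.8%), a microRNA gene for 45 (3.53%) and another small RNA gene for 88 (6.90%). Among regions of the other classes a coding gene was named for 83.4% and a pseudogene for 1.67%. The named gene was therefore often not the nearest coding gene. No distal region covered a microRNA hairpin of the RefSeq table, and the closest approach was 3044 bp, at Mir26b. Both values follow largely from the class, which begins beyond 3 kb of a gene start, microRNA genes included.

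The share of regions in the distal class also varied between chromosomes in replicate 3. Leaving aside chromosome Y, which held 1 region and 0 distal ones, it ran from 6.10% on chromosome 7 to 16.6% on chromosome 18, where 77 of 465 regions were distal. In replicates 1 and 2 chromosome 18 gave 4.76% and 5.26%, below their whole lists, from 1 and 3 distal regions.

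The 1276 regions were assigned to 1046 genes, of which 879 had 1 region and 42 had 3 or more. Of 409 coding genes, 210 (51.3%) also had a promoter region within 1 kb of their start in replicate 3. In replicates 1 and 2 that held for 2 of 15 and 11 of 50 coding genes. Those 2 lists held only 373 and 1172 promoter regions within 1 kb, against 8256 in replicate 3. Over all 21900 RefSeq coding genes, 6195 (28.3%) had such a promoter region in replicate 3. The matching share was not computed for replicates 1 and 2, so 28.3% is no background for them. Among coding genes matched to RefSeq, the share was 52.2% of the 402 assigned a distal region and 64.9% of the 813 assigned an intronic one. The genes with most regions did not code for protein: Gm25888 had 6, and Gm23882, Gm26913 and Gm26927 had 5 each. Gm26913 and Gm26927 lie on chromosome 13 with regions 4.23 kb to 124.8 kb from their starts. The other genes named for their number of regions, all with 4, were Ddit4, Fos, Gm18671, Gm26485, Gm34424 and Gm8031, taken in alphabetical order from 12 genes with that number.

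Most distal regions stood alone. With neighbours joined across gaps of up to 25 kb, 886 regions (69.4%) had no distal neighbour and 390 (30.6%) fell into 160 groups. Grouped regions had a median fold of 3.98 and the others 3.89, and 12.6% and 7.67% of them were overlapped in another replicate. The largest group held 8 regions over 76.1 kb of chromosome 18, with Cxxc5 and Psd2 as nearest coding genes and folds of 2.70 to 5.16. The next held 7 regions over 50.9 kb of chromosome 12, nearest to Irf2bpl and Lrrc74a, where 1 region of 1649 bp reached 8.24 and the others 2.85 to 3.95.

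The group beside Ddit4, which encodes a stress-induced inhibitor of mTORC1, held 5 regions over 58.5 kb on both sides of the gene. Its folds were 2.65 and 3.55 downstream, 6.47 and 5.10 upstream, and 2.90 at the far end beside Anapc16. The 5 regions beside Ptma, the prothymosin alpha gene, spanned 22.7 kb upstream of it, with folds of 3.36, 5.50, 5.84, 3.08 and 4.00, and replicate 2 overlapped 2 of them. The 5 beside Septin7 spanned 39.8 kb with folds of 3.15 to 4.60. In these groups 1 or 2 regions stood above the rest, and the others were near or below the middle of the list.

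**Figure D4:**
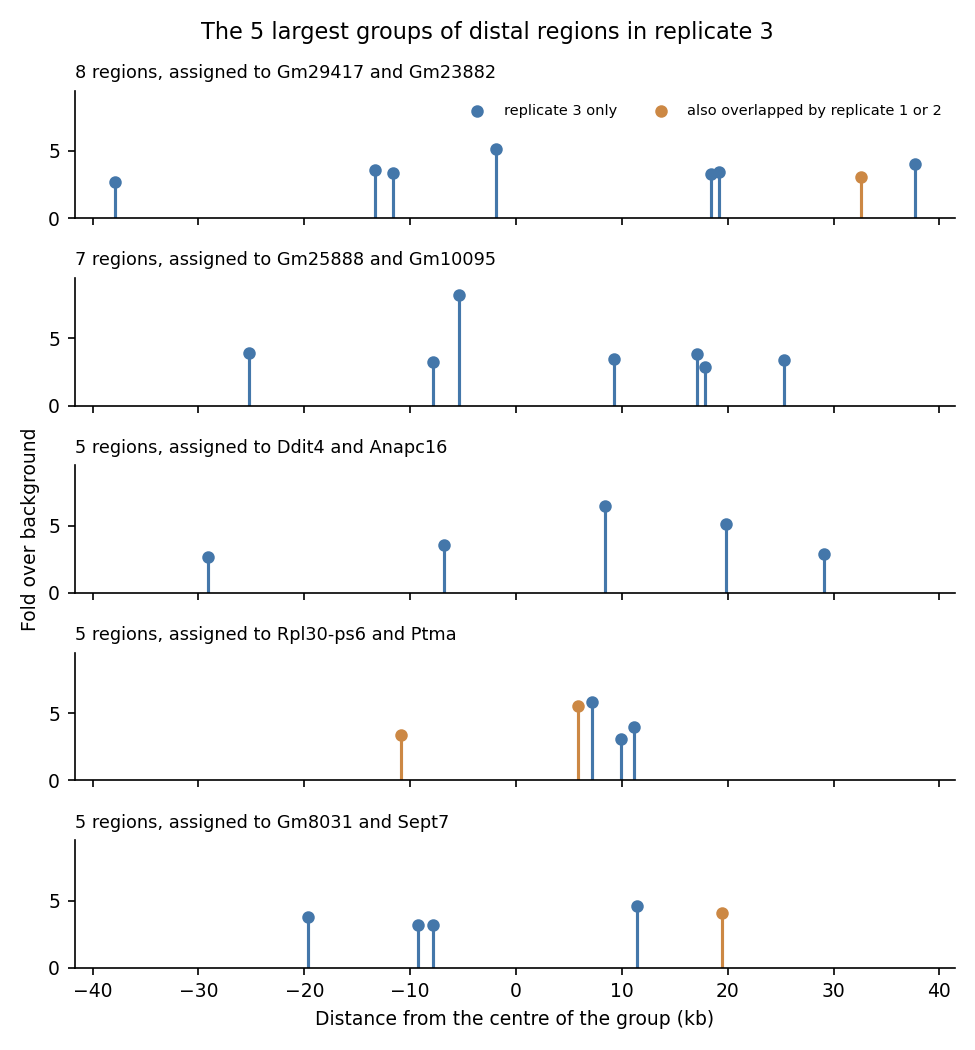
Fold over background (y axis) of each distal region in the 5 largest groups of replicate 3 by its distance from the centre of the group (x axis, kb); colour shows whether replicate 1 or 2 also overlapped it. The highest point is the region of fold 8.24 in the group assigned to Gm25888, and 4 of the 30 regions were overlapped in another replicate.

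Gene lists for the cell types of the cord and for regulators were then laid over the set. Of 21900 RefSeq coding genes, 402 were named for a distal region of replicate 3 (1.84%), and 957 were the nearest coding gene to one (4.37%). To allow for the size of the flanks, regions were also counted per Mb of intergenic sequence, with each gap between coding genes shared equally by its flanking genes. Over all coding genes that gave 1240 regions, or 0.748 per Mb. The list values are descriptions, and no list was tested against others.

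Genes of the oligodendrocyte lineage, the cells that make myelin in the cord, had distal regions most often among the 12 lists. Of 38 genes, 7 were named for a region (18.4%), 4 of them at a fold of 5 or more, and 11 were the nearest coding gene. Their flanks held 15 regions, or 3.24 per Mb. Besides Cldn11, the named genes included Trf, the transferrin gene, with folds of 7.72 in replicate 3 and 5.02 in replicate 2 at 4.17 kb upstream. Gpr37, a receptor gene of myelinating cells, had 6.39 and 4.53 at 28.8 kb downstream, and Mog, a gene of the myelin surface, had 5.11 in replicate 3 only. Ugt8a, the enzyme of myelin galactolipids, had 4 regions with folds of 3.88 to 4.98 in replicate 3 only. Replicate 1 overlapped no distal region of these 5 genes. The myelin protein gene Mobp was also named, at a fold of 4.00.

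Immediate early and AP-1 genes, which rise within minutes of cell stimulation, were the other list with many regions per Mb. Of 22 genes, 3 were named, and the flanks of all 22 held 8 regions, or 3.77 per Mb. Fos was the nearest coding gene of 5 regions, Nr4a1 of 2, Btg2 of 1 and Egr1 of 0. The value per Mb thus rested largely on the Fos locus. The regions named for genes of the list were as follows. Fos had 4 regions with folds of 4.40, 5.13, 2.88 and 2.76, from 18.1 kb upstream to 12.9 kb downstream, and only the third was found in replicates 1 and 2. Nr4a1, a nuclear receptor gene, had 3.68 and 3.05 at 7.51 kb and 6.91 kb upstream, and Egr1 had 4.44 at 25.98 kb downstream. Fos therefore gave more of these regions than any other gene of the list.

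Astrocyte genes held 1.87 regions per Mb, with 3 of 19 genes named. S100b had a fold of 4.36, Glul 4.36 in replicate 3 and 4.05 in replicate 2, and the glutamate transporter gene Slc1a3 3.30. SOX genes held 1.54 per Mb with 3 of 20 named, all weak: Sox14 3.06, Sox4 3.06 and Sox13 2.75. HOX genes, whose clusters leave little intergenic sequence, had 1 region, beside Hoxb8, at 4.65. Spinal cord patterning factors held 0.684 per Mb with 6 of 91 named, at folds of 2.91 to 4.55, among them Pou3f2 at 4.55, Onecut2 at 4.04, Otp at 3.77 and Barhl2 at 3.37. The strongest region with such a gene as its nearest coding gene had folds of 8.62 and 6.27 in replicates 3 and 2, but Irx5 was 223.1 kb away. Neuronal genes held 0.659 per Mb with 3 of 29 named, among them Elavl4 at 4.02 (3.92 in replicate 1) and Map2 at 3.84.

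Microglial genes were not named for any distal region. Of 28 genes 0 were named and 1, Sall1, was the nearest coding gene, at 197.5 kb and a fold of 3.50, and the flanks held 3 regions or 0.926 per Mb. Since only 1.84% of all coding genes were named, 0 of 28 was close to that share. The flank value was above the 0.748 per Mb of all coding genes. Myeloid and lymphoid transcription factors, several of which act with Runx1 in blood, held 0.984 per Mb with 2 of 40 named, Nr4a1 (above) and Bhlhe40 at 3.85. Mef2c (5.82, 49.2 kb), Klf4 (5.39, 118.6 kb) and Maf (4.75, 346.6 kb) were nearest coding genes of other regions, and none of these was overlapped by replicate 1 or 2. TALE, ZEB, SALL and NFI factors held 0.985 per Mb with 1 of 21 named, Meis2 at 3.98. Endothelial, pericyte and meningeal genes held 0.961 per Mb with 0 of 24 named. Olfactory and vomeronasal receptor genes, taken as genes these cells should not use, had 0 of 15 and 0 regions, in flanks of only 1.17 Mb. In lists this short, 0 named genes is close to the 1.84% over all coding genes.

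**Figure D5:**
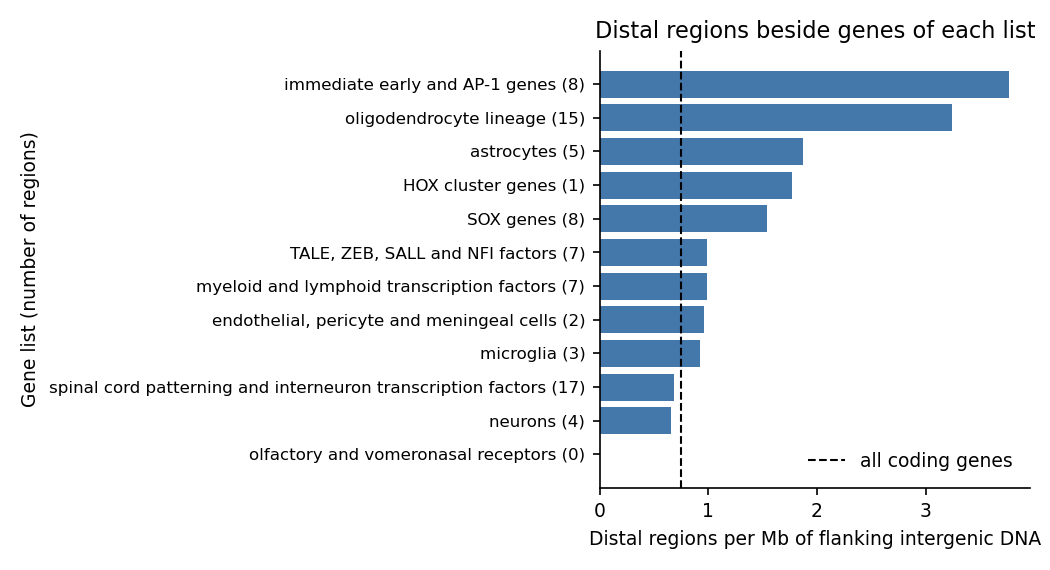
Distal regions of replicate 3 per Mb of flanking intergenic sequence (x axis) for each gene list, with the number of regions in brackets; the dashed line is the value over all coding genes, 0.748. Immediate early and AP-1 genes (3.77) and oligodendrocyte genes (3.24) had the highest values, from 8 and 15 regions.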

How the data were processed

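The files hold regions called separately in each replicate, per the deposited lists, and the authors give 4 values per summit: −log10 q, −log10 p, a score and the fold enrichment ratio. The authors' tables add a class, a gene and a distance for each region. Build GRCm38 and the tools MACS2 2.1.2, Picard 2.18.26, SAMtools 1.9, Bowtie2, FastQC and Trimmomatic 0.38 are named in the submitters' processing notes. For settings, control library and read totals, nothing is given in the sources used here. The lowest −log10 q was 2.01, 2.00 and 2.00 in replicates 1, 2 and 3.

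Members and gene lists (12 lists, 387 entries, 386 matched to RefSeq) were chosen with earlier results of these data known. Pileups were solved from fold and −log10 p within 0.001, at the strongest summit of each region, for 100% of distal regions. Named regions were those in all 3 replicates, the 12 strongest, the 10 widest, the 10 genes with most regions, the 3 nearest and 3 farthest, up to 5 a replicate missed by replicate 3, up to 4 a list, regions at RefSeq starts and the 5 largest groups. Some genes that this rule names are left out. Intervals are 95% and cover counting error only. With fragment counts unknown beyond summits, depth is otherwise unknown. Exact sign-flip tests were run on the differences between distal and other or intronic regions, 1 difference per replicate. The scripts were tested on simulated data, where 100% of 1962 pileups and 100% of 304 planted overlaps were recovered. Alternatives were stricter q or fold, other overlap definitions, other gene sets and leaving out replicates. Software was scipy 1.17.1, pandas 2.3.3, numpy 2.4.6, matplotlib 3.10.9 and Python 3.11.15.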

Additional observations from a re-analysis of the deposited data

How the results depend on the processing

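Of 42 recomputed values, 31 stayed on the same side and within their error. The mean share of distal regions was 9.54% among regions with a fold of 5 or more and 5.39% without those in a RefSeq gene body or within 3 kb of a RefSeq gene end, and it ranged from 7.47% to 8.64% with a replicate left out. The mean median distance was 15.0 kb at a −log10 q of at least 5 and 14.6 kb at a fold of 5 or more. The log2 width difference ranged from −0.16 to 0.00041 with a replicate left out, with the value above 0 without replicate 3. At a fold of 5 or more it was −0.18, which counted as unchanged because the sign was kept. With strongest summits within 200 bp as the definition, 7.05% of replicate 3 distal regions and 63.9% of those of replicates 1 and 2 were overlapped, and with a fold of 5 or more required in every list the second share was 61.9%. Without replicate 2, 2.43% of replicate 3 distal regions were overlapped, and without replicate 1 8.07%. Coding genes with a distal region and a RefSeq match numbered 402 in the authors' tables, 957 by nearest RefSeq gene body and 114 at a fold of 5 or more. The cause of these shifts was not tested, beyond the smaller numbers of regions that the stricter settings leave. No paired analysis was possible because the study has 1 group of samples, with no second group to pair it with. Distal and other regions were compared within each replicate, and that sign-flip test cannot fall below 0.25 with 3 replicates. Replicates 1 and 2 hold few regions, so a region missing there is not shown to be absent.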
